A study of Mus musculus with 6 samples.

Results

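The ATP-binding cassette (ABC) transporters other than Abca3 comprised 47 of the 52550 genes in the count table, taken by symbol as every member of the subfamilies Abca to Abcg except Abca1, Abca3 and Abcg1. ABC proteins bind and hydrolyse ATP at paired nucleotide-binding domains and use that energy to move lipids, drugs, conjugates, peptides or bile salts across membranes. Members of subfamilies E and F keep the ATP-binding domains, lack membrane domains and act on ribosomes. In alveolar type II (AT2) cells, the surfactant-making epithelium of the lung, the family is best known for the excluded member Abca3, which loads surfactant lipid into lamellar bodies. RNA was sequenced from lung AT2 cells of C57BL/6 mice, sorted magnetically as CD45- and EPCAM+ cells after dispase digestion, in 3 control libraries and 3 libraries labelled Grp78KO. All 6 carried the genotype Sftpc+/creERT2; Grp78f/f, in which a tamoxifen-inducible Cre sits at the surfactant protein C gene and Grp78, the endoplasmic reticulum chaperone encoded by Hspa5, is floxed. The genotype labels separate the groups by tamoxifen (Tmx), without it in controls and with it in Grp78KO, so tamoxifen and the deletion cannot be told apart. All 6 carry the same day label, 10 days after Tmx injection, which in the controls conflicts with the genotype label. Ages are not given, Cre acts only in cells that express Sftpc, and no label says whether each library is its own animal. All p-values therefore cover only the spread between these libraries, which may be technical.

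Library totals ran from 110770711 to 149520306 counts, and the members took 0.121% to 0.139% of them. Values below are CPM, counts divided by library size and scaled by the trimmed mean of M values (TMM). A log2 fold is the libraries labelled knockout over controls from edgeR, a gene was called at a Benjamini-Hochberg adjusted p under 0.05 over all 18849 genes tested, and SE is the standard error of the log2 fold. Hspa5 itself stood at 925 to 1355 CPM in controls and at 3809 to 9262 CPM in the others, where it was higher by 6.24-fold (edgeR adjusted p = 0.00208). This goes against the label, and gene counts do not separate the floxed exons. Every direction below is therefore one between libraries as labelled. The lowest Hspa5 level of each group was in library 3, at 925 and 3809 CPM. In bulk RNA, fewer cells of a type and less RNA per cell cannot be told apart. AT2 markers were abundant in all libraries: 10 genes summed to 144325 to 169556 CPM in controls and to 55505 to 71671 CPM in the libraries labelled knockout, where 10 of 10 fell. Of 10 fibroblast markers 9 rose, from sums of 248 (control 1), 243 (control 2) and 608 CPM (control 3) to between 1218 and 1367 CPM in the libraries labelled knockout, and none was at 0 in every library. Of 8 mesothelial markers 7 rose, with sums between 298 and 349 CPM among controls and between 511 and 655 CPM otherwise. Markers of club and secretory airway cells were abundant as well. Their 8 genes summed to 38312 to 67001 CPM in controls, lowest in control 3, and to 37371 to 41504 CPM otherwise. Of these 8, 1 was called, lower. Of 8 alveolar type I markers 4 fell and 1 rose. They summed to 2221 to 2490 CPM in controls and 1505 to 1516 CPM otherwise. Of 10 endothelial markers only Vwf was called, higher (10% called, against 36.8% of all genes). Their sums were 518, 520 and 476 CPM for controls 1, 2 and 3. Grp78KO libraries 1 and 2 reached 786 and 821 CPM, while Grp78KO library 3, at 484 CPM, lay within the control range. The part of these cell types in the results below was not tested.

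Of the 47 members, 42 had enough counts to be tested. Of these, 12 were called higher and 9 were called lower in the Grp78KO libraries, and 21 were not called. The called share was 50.0% of tested members, against 36.8% of all genes tested. Higher calls made up 28.6% of members against 18.0% of all genes, and lower calls 21.4% against 18.8%. The groups did not overlap for 25 tested members (59.5%, against 51.6% of all genes), among them all 21 called members. The median log2 fold of the tested members was 0.01, against 0.02 for all genes. Of the called members, 13 differed by 1.5-fold or more, 7 higher and 6 lower, and the other 8 by less. The share of all genes called at that size was not computed, so these 13 are not set against it. Scaling by library size alone shifted the median gene from 0.02 to 0.27 on the log2 scale and gave 14 higher and 4 lower members (42.9% called, against 40.1% of all genes). Without control 2 the counts were 5 higher and 5 lower, without library 1 labelled knockout 6 and 4, and without library 2 labelled knockout 6 and 4. Without both libraries numbered 3 they were 16 and 10. The called share of all genes went the same way, to 19.1%, 20.6%, 19.6% and 56.0% in these 4 fits, against 22.7%, 23.3%, 23.3% and 60.5% of tested members.

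**Figure D1:**
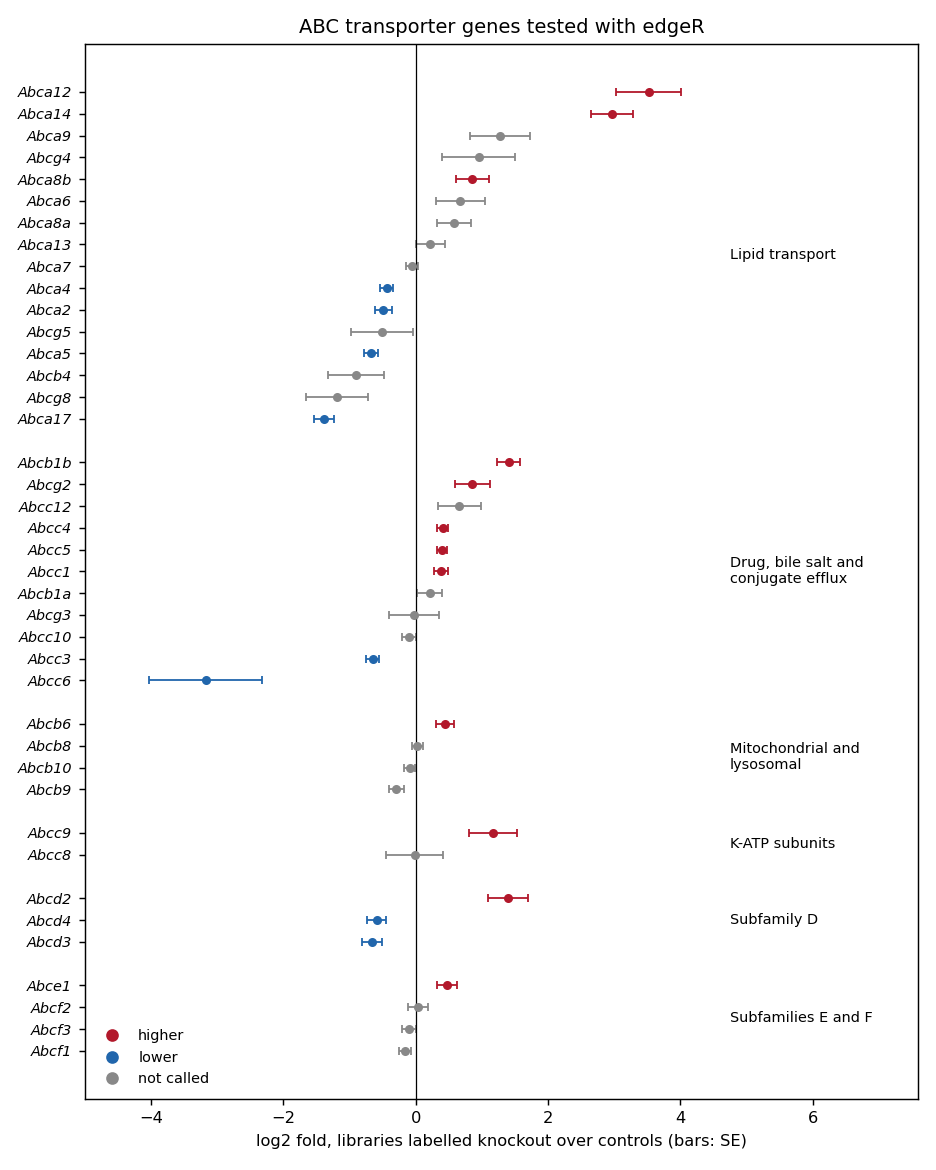
Log2 folds of 40 of the 42 tested members, libraries labelled knockout over controls, on the x axis, with bars of 1 SE, 3 libraries a group, grouped by role. Red points were called higher, blue points lower and grey points not called; Abca12 at 3.52 and Abcc6 at -3.17 lie farthest from 0.

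For 36 of the 47 members RefSeq promoters on build GRCm38.p6 could be matched, and the bases before the annotated start were read for each. The sequences of 4 members are shown because the results turn on them. Abca17 is the divergent neighbour of Abca3, and both fell. Abcb1a and Abcb1b are adjacent paralogs, of which only Abcb1b was called with all libraries. Abca14 had one of the largest rises. Each run is the 250 bases before the RefSeq start, 5′ to 3′ on the gene's strand, and capitals mark matches to CCAAT or GGGCGG on either strand.
Abca17, chr17:24351060-24351309, minus strand: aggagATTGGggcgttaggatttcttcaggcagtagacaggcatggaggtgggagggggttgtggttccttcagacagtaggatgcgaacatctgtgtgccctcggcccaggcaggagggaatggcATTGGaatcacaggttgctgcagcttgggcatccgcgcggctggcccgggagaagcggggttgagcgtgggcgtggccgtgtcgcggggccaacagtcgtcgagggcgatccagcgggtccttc
Abcb1a, chr5:8566841-8567090, plus strand: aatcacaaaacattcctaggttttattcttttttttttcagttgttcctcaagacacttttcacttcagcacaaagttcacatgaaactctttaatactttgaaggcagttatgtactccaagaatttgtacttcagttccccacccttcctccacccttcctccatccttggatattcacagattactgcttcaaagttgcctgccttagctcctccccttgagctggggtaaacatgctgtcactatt
Abcb1b, chr5:8797897-8798146, plus strand: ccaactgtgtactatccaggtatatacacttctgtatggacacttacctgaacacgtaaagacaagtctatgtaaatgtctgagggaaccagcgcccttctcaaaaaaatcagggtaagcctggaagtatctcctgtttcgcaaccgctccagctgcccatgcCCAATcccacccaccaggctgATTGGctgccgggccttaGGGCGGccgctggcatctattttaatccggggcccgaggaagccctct
Abca14, chr7:120203714-120203963, plus strand: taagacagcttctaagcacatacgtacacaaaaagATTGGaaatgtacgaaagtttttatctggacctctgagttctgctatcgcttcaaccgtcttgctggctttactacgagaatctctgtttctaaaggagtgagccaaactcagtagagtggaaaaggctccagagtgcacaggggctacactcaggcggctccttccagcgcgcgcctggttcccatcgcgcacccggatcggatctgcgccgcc
The Abcb1b run held 2 CCAAT matches and 1 GGGCGG match, while that of Abcb1a held 0 of either. The RefSeq start of Abcb1a lies far upstream of the gene start in the annotation used for coordinates, so its window is that of a distal start. Abca17 had 2 CCAAT matches and Abca3 1 GGGCGG match. CCAAT occurred in this window for 13 of the 36 matched members (36.11%, against 37.49% of 27025 genes) and GGGCGG for 15 (41.67%, against 35.36%). The antioxidant response core TGACNNNGC, searched on both strands, occurred for 3 members, Abcc10, Abcc2 and Abcc4 (8.33%, against 11.52% of genes). Abcc4 had a match before each of its 2 annotated starts, with the core in capitals.
Abcc4 start nearer the 3′ end of the gene, chr14:118676932-118676969, minus strand: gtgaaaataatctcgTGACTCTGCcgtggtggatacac
Abcc4 start nearer the 5′ end of the gene, chr14:118706221-118706259, minus strand: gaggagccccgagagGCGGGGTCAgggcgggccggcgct
The C/EBP-ATF letters TGATGNAA occurred for 1 member, Abca13 (2.78%, against 3.91% of genes), and the endoplasmic reticulum stress element, searched on both strands, for 0 members (against 0.13% of genes). These are matches of letters and not shown to be sites.

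Levels of different genes were compared only after division by exon length. Abcd3, the peroxisomal membrane transporter also known as PMP70, stood highest at 72.9 ± 8.49 CPM per kb (SD, n = 3). Abcc3, an exporter of glucuronides and bile salts, followed at 27.8 ± 2.65 CPM per kb (SD, n = 3). The ribosome-linked genes Abcf2 at 17.7 ± 2.28, Abcf1 at 14.7 ± 0.705, Abce1 at 12.4 ± 1.76 and Abcf3 at 12.2 ± 1.21 CPM per kb (SD, n = 3 each) came next, with Abce1 and Abcf3 closer than their SDs. Abca2 stood at 10.3 ± 0.445 CPM per kb (SD, n = 3). In all, 8 members exceeded 10 CPM per kb, 12 lay between 1 and 10, and 27 lay under 1. In the libraries labelled knockout Abcd3 remained highest, at 46.2 ± 6.70 CPM per kb (SD, n = 3). Abcf2 (18.2 ± 2.86), Abcc3 (17.7 ± 0.455) and Abce1 (17.2 ± 2.49) then lay closer to one another than the SD of Abcf2 (CPM per kb, SD, n = 3 each). Abca14 moved from place 36 to place 25 of 47 and Abcc6 from place 28 to place 40.

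**Figure D2:**
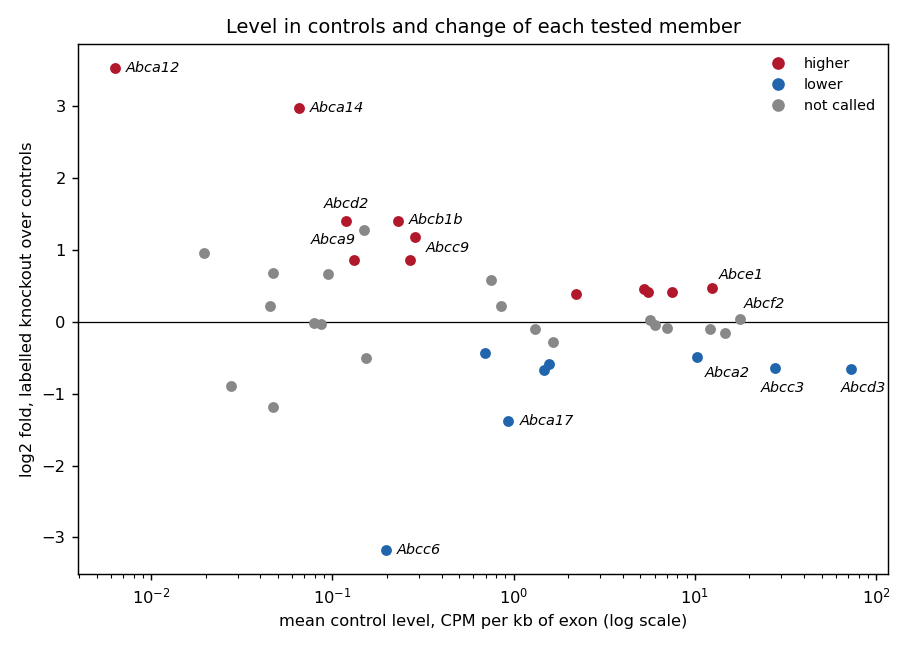
Log2 fold, libraries labelled knockout over controls (y), against the mean control level in CPM per kb of exon on a log axis (x) for 40 of the 42 tested members. Red, blue and grey points were called higher, called lower and not called; both axes use the control libraries, so no relation is read from the plot. Abcd3 and Abcc3, at 72.9 and 27.8 CPM per kb, both lie below 0.

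Among the 18 members assigned to lipid transport, 16 were tested, 3 rose (Abca12, Abca14 and Abca8b) and 4 fell (Abca17, Abca5, Abca2 and Abca4), so 43.8% were called, against 36.8% of all genes. Abca12, which loads glucosylceramide into the lamellar granules of keratinocytes (chromosome 1, 71242276 to 71414910, minus strand, mm10), held 8, 12 and 16 counts in controls 1, 2 and 3 and 137, 204 and 79 counts in libraries 1, 2 and 3 labelled knockout. In CPM these were 0.0702, 0.0887 and 0.123 against 1.01, 1.71 and 0.560, so the groups lay far apart at a low level, and the difference was 3.52 on the log2 scale (SE 0.490, edgeR adjusted p = 0.00221). Abca14, a rodent gene of uncertain substrate (chromosome 7, 120203961 to 120325352, plus strand), was at 0.404, 0.466 and 0.291 CPM in controls and at 3.51, 3.60 and 1.97 CPM in the libraries labelled knockout. All 3 of the latter were higher, library 3 least (log2 fold 2.96, SE 0.319, edgeR adjusted p = 0.000921). Its neighbours Abca15 and Abca16, which follow it on the same strand after gaps of 3.3 and, between the pair, 2.0 kb, were too low to test, with at most 4 counts in any library.

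Abca17 (chromosome 17, 24264259 to 24351068, minus strand) fell from 4.80, 5.003 and 5.84 CPM in controls to 1.96, 2.12 and 1.90 CPM in libraries 1, 2 and 3 labelled knockout. The libraries labelled knockout were close together and all below the controls (log2 fold -1.39, SE 0.148, edgeR adjusted p = 0.000897). It lies 0.9 kb from Abca3 on the opposite strand, and the RefSeq starts of the pair are 963 bases apart. Abca3 fell from 2217, 2344 and 2583 CPM to 884, 937 and 1229 CPM (log2 fold -1.23, SE 0.166, edgeR adjusted p = 0.00201). In library 3 labelled knockout Abca3 was the highest of its group and Abca17 the lowest. Of the 100-base words of the Abca17 transcript, 0.29% also occur in an Abca3 transcript.

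Abca5, a transporter of the endosome and lysosome linked to cholesterol handling (chromosome 11, 110269369 to 110337716, minus strand), was at 16.3, 15.9 and 18.2 CPM in controls and 9.89, 10.2 and 11.4 CPM in the libraries labelled knockout. The groups were well separated (log2 fold -0.68, SE 0.103, edgeR adjusted p = 0.00304). Abca2, a related endolysosomal gene with roles in sphingolipid and sterol handling, fell from 81.7 to 88.7 CPM in controls to 52.9 to 72.8 CPM, a 1.40-fold difference. Abca4, the retinoid-lipid flippase of photoreceptors, fell 1.35-fold. The Abca2 and Abca4 calls ended with library-size scaling (adjusted p = 0.286 and 0.263). They also ended without control 2 (0.0679 and 0.0544), without library 1 labelled knockout (0.0691 and 0.0649) and without library 2 labelled knockout (0.0829 and 0.0510, edgeR adjusted p in each case).

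Abca5 lies in a cluster on chromosome 11 with Abca8b, Abca8a, Abca9 and Abca6, all on the minus strand. Each of these 4 had a log2 fold above 0, while Abca5, at the cluster's end, was lower. Abca8b rose from 0.719, 0.953 and 1.26 CPM in controls to 1.80, 1.67 and 1.84 CPM (log2 fold 0.86, SE 0.247, edgeR adjusted p = 0.0305). Its call ended without control 1 or control 2 and without Grp78KO library 1 or 2 (adjusted p = 0.0822, 0.105, 0.0894 and 0.0788). Abca8a was at 3.71, 3.53 and 6.95 CPM in controls and 6.95, 7.28 and 6.97 CPM in the libraries labelled knockout. Control 3 thus nearly reached the other group, and the gene was not called (log2 fold 0.58, edgeR adjusted p = 0.112), although it was without control 3 (log2 fold 0.96, adjusted p = 0.00331). Abca9 was at 0.781, 1.35 and 1.501 CPM against 2.01, 1.73 and 5.07 CPM, with library 3 labelled knockout far above the rest (log2 fold 1.28, edgeR adjusted p = 0.059). Without that library the Abca9 log2 fold was 0.63 (edgeR adjusted p = 0.126). It was called with the replicate block (log2 fold 1.17, edgeR adjusted p = 0.0315), with library-size scaling (0.0441) and by DESeq2 (adjusted p = 0.00978). Abca6 ranged from 0.167 to 0.375 CPM among controls and from 0.345 to 0.454 CPM otherwise, with the groups overlapping (log2 fold 0.68, edgeR adjusted p = 0.191). The sum of fibroblast markers was also highest among controls in control 3. Leukocyte markers without Lyz1, a gene set aside after its values were seen, reached 79.9 CPM in Grp78KO library 3. This reduced sum was 13.0 to 17.5 CPM in the other 5. With Lyz1 kept, the order turned. Grp78KO library 3 was then lowest, at 1820 CPM, while the rest ranged from 1862 to 3126 CPM. Lyz1 itself was called lower (log2 fold -0.69, edgeR adjusted p = 0.00739). The part of fibroblasts and leukocytes in these 4 genes was not tested.

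**Figure D3:**
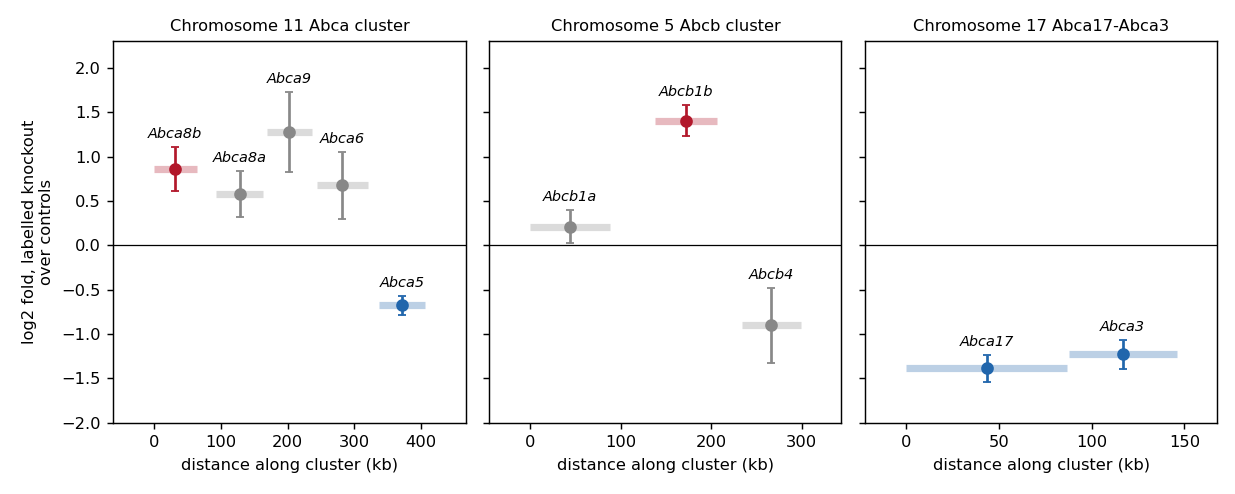
Log2 fold with 1 SE (y) for neighbouring ABC genes by distance along each cluster in kb (x), from 3 libraries a group; pale bars span each gene. On chromosome 11 Abca8b, Abca8a, Abca9 and Abca6 lie above 0 and Abca5 at -0.68, on chromosome 5 Abcb1b stands at 1.40 between Abcb1a at 0.21 and Abcb4 at -0.90, and on chromosome 17 Abca17 and Abca3 lie at -1.39 and -1.23.

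The other lipid transporters were not called. Abca7, a phospholipid exporter linked to phagocytosis, was at 36.4 to 42.5 CPM in controls and 37.7 to 40.1 CPM in the libraries labelled knockout (log2 fold -0.05). Abcb4, the phosphatidylcholine translocase of bile canaliculi, was at 0.149 to 0.360 CPM against 0.118 to 0.163 CPM (log2 fold -0.90, edgeR adjusted p = 0.131). The sterol export partners Abcg5 and Abcg8 had log2 folds of -0.50 (edgeR adjusted p = 0.43) and -1.19 (edgeR adjusted p = 0.0788), and Abcg8, at 20 to 25 counts in controls and 6 to 14 in the others, did not overlap between groups. Abcg4, a sterol transporter of neural tissue, differed by 0.96 on the log2 scale at 4 to 30 counts (edgeR adjusted p = 0.207), and Abca13 one of 0.22 (edgeR adjusted p = 0.449).

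Of 14 members assigned to efflux of drugs, bile salts and conjugates, 11 were tested, 5 rose (Abcb1b, Abcg2, Abcc4, Abcc5 and Abcc1) and 2 fell (Abcc3 and Abcc6). The called share was 63.6%, against 36.8% of all genes. Abcb1b, which with Abcb1a encodes mouse P-glycoprotein (chromosome 5, 8798147 to 8866315, plus strand), was at 1.89, 1.72 and 1.91 CPM in controls and 5.30, 5.39 and 3.91 CPM in libraries 1, 2 and 3 labelled knockout. The controls were tight and every library labelled knockout was above them (log2 fold 1.40, SE 0.175, edgeR adjusted p = 0.0015). Abcb1a, which lies 49.6 kb upstream of it in the annotation used here, was at 4.46, 5.06 and 4.47 CPM against 6.07, 6.11 and 4.03 CPM. Library 3 labelled knockout lay below all controls, and the gene was not called (log2 fold 0.21, edgeR adjusted p = 0.398). Without that library it was (log2 fold 0.38, edgeR adjusted p = 0.0374). The sum of endothelial markers was also the lowest of its group in that library, at 484 CPM. The part of endothelial cells in the Abcb1a values was not tested. The log2 ratio of Abcb1a to Abcb1b counts was 1.34 ± 0.185 in controls and 0.139 ± 0.0851 in the other group (SD, n = 3 per group; exact two-sided permutation p = 0.10, the smallest 3 against 3 allows, and 0.25 adjusted over 5 pairs). In the transcripts, 8.51% of Abcb1a and 8.89% of Abcb1b 100-base words occur in another gene, among them the other paralog and Gm42686, so reads in those stretches may have been split. On the opposite strand Gm42686 overlaps 10.1% of Abcb1a exon bases and Gm5106 overlaps 1.8% of those of Abcb1b.

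Abcg2, the breast cancer resistance protein that exports drugs and urate (chromosome 6, 58584523 to 58695676, plus strand), was at 2.88, 1.64 and 2.05 CPM in controls and 4.49, 4.46 and 2.95 CPM in the libraries labelled knockout. Control 1 and library 3 labelled knockout nearly met (log2 fold 0.86, SE 0.261, edgeR adjusted p = 0.0366). Its call ended without control 2 or control 3 and without Grp78KO library 1 or 2 (edgeR adjusted p = 0.127, 0.0967, 0.114 and 0.12). Abcc4, an exporter of cyclic nucleotides and prostanoids, rose 1.33-fold from 46.0, 46.2 and 50.1 CPM to 61.2, 64.4 and 63.2 CPM. Abcc5, also an exporter of cyclic nucleotides, rose 1.32-fold from 57.8, 61.4 and 58.4 CPM to 79.2, 79.7 and 76.4 CPM. Both differences were small, with tight groups, and both genes were called in every alternative run. Abcc1, which exports glutathione conjugates and leukotriene C4, rose 1.31-fold, from 28.9 to 35.3 CPM in controls to 40.2 to 46.2 CPM. The Abcc1 call ended without control 1, 2 or 3 (edgeR adjusted p = 0.0513, 0.0653 and 0.06) and without library 1 or 2 labelled knockout (0.08 and 0.107).

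Abcc3 (chromosome 11, 94343295 to 94392997, minus strand) fell from 168, 166 and 141 CPM in controls to 101, 103 and 98.0 CPM. It was the most abundant of the efflux genes per length in both groups, and its groups were well apart (log2 fold -0.65, SE 0.0992, edgeR adjusted p = 0.00307). Abcc6, whose product drives release of ATP from liver cells (chromosome 7, 45967555 to 46030302, minus strand), held 133, 163 and 133 counts in controls and 23, 0 and 28 counts in libraries 1, 2 and 3 labelled knockout. In CPM it was at 1.17, 1.20 and 1.02 in controls and at 0.169 and 0.198 in libraries 1 and 3 labelled knockout, and the 0 in library 2 allows up to 3 counts, or 0.0252 CPM. The fitted log2 fold was -3.17 (SE 0.853, edgeR adjusted p = 0.0244). That call ended with no filter on low counts (edgeR adjusted p = 0.0609), without control 1, 2 or 3 (0.068, 0.0745 and 0.0502) and without library 1 labelled knockout (0.0742). The efflux genes not called were Abcb1a, Abcc10 (log2 fold -0.10), Abcc12 (0.66 at 51 to 184 counts, edgeR adjusted p = 0.149) and Abcg3 (-0.03).

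**Figure D4:**
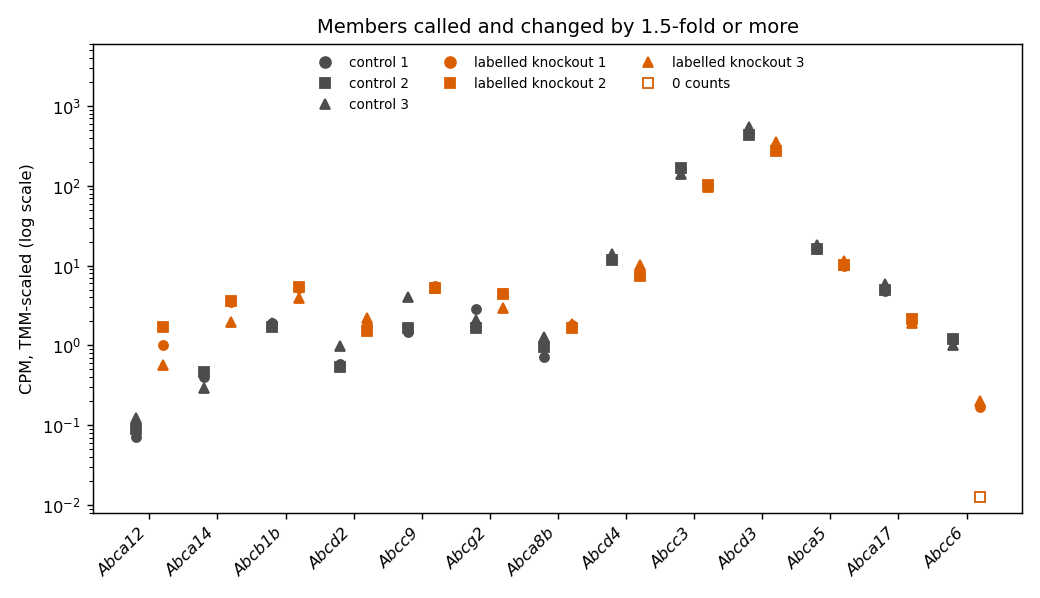
TMM-scaled CPM on a log axis (y) in each of the 6 libraries for the 13 members called and changed by 1.5-fold or more (x), with controls in grey and libraries labelled knockout in orange; symbols give the library number. The open square is Abcc6 at 0 counts in library 2 labelled knockout, drawn at the foot of the axis, and in library 3 labelled knockout Abca12 (0.560 CPM) and Abca14 (1.97 CPM) lie closest to the controls.

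Abcb6, a porphyrin transporter of mitochondria and lysosomes, rose 1.36-fold from 32.5, 28.1 and 22.9 CPM in controls to 41.3, 37.8 and 34.7 CPM. The groups lay apart by little (edgeR adjusted p = 0.0386), and the call ended without control 2 or control 3 and without Grp78KO library 1 or 2 (0.114, 0.0828, 0.123 and 0.103). Of its exon bases 55.2% also lie in exons of Gm29253 on the same strand, a gene at 0 to 0.643 CPM, so its reads may have been split. Abcb8 and Abcb10, both of the mitochondrial inner membrane, had log2 folds of 0.03 and -0.09, and the lysosomal peptide transporter Abcb9 one of -0.29 with separate groups (edgeR adjusted p = 0.087).

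Subfamily D proteins carry acyl-CoA esters into peroxisomes or, for Abcd4, cobalamin out of lysosomes. Abcd3 (chromosome 3, 121758774 to 121815302, minus strand) fell from 460, 439 and 544 CPM in controls to 282, 277 and 355 CPM in the libraries labelled knockout. Both libraries numbered 3 were the highest of their groups (log2 fold -0.66, SE 0.146, edgeR adjusted p = 0.0119). Abcd4 fell from 12.1, 11.6 and 14.0 CPM to 7.63, 7.40 and 10.0 CPM, a 1.5-fold difference with the same order of libraries. Abcd2, a peroxisomal carrier of fatty acyl-CoA (chromosome 15, 91145871 to 91191799, minus strand), rose from 0.579, 0.532 and 0.996 CPM to 1.81, 1.53 and 2.23 CPM (log2 fold 1.40, SE 0.304, edgeR adjusted p = 0.0111). Per length Abcd2 stayed far below Abcd3, at 0.312 ± 0.0589 CPM per kb (SD, n = 3) in the libraries labelled knockout. The Abcd3 call ended with library-size scaling (edgeR adjusted p = 0.106) and without library 2 labelled knockout (0.0568). That of Abcd4 ended with library-size scaling (0.189) and without library 1 or 2 labelled knockout (0.0667 and 0.0729), and that of Abcd2 without control 2 (0.051).

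Abcc9 and Abcc8 encode the sulfonylurea receptors, regulatory subunits of ATP-sensitive potassium channels. Abcc9 (chromosome 6, 142587862 to 142702315, minus strand) was at 1.49, 1.63 and 4.03 CPM in controls and 5.60, 5.29 and 5.24 CPM in the libraries labelled knockout. Controls 1 and 2 were low and control 3 stood between them and the other group (log2 fold 1.17, SE 0.366, edgeR adjusted p = 0.0398). Without control 3 the Abcc9 log2 fold was 1.78 and the gene was called. The call ended with no filter on low counts (edgeR adjusted p = 0.0612), without control 1 or 2 (0.108 and 0.135) and without library 1, 2 or 3 labelled knockout (0.105, 0.0951 and 0.0535). Kcnj8, a pore subunit that pairs with Abcc9, rose by a log2 fold of 1.55, from 0.909 to 1.44 CPM to 2.19 to 4.55 CPM (edgeR adjusted p = 0.0089). Kcnj11, another pore subunit of these channels, was not called (log2 fold -0.38, edgeR adjusted p = 0.27). Abcc8 ranged from 0.352 to 0.791 CPM among controls and from 0.360 to 0.893 CPM otherwise (log2 fold -0.02). Of 10 markers of smooth muscle and pericytes, which include Kcnj8, 6 rose (60% called, against 36.8% of all genes). The 10 summed to 31.9 to 36.4 CPM in controls and 50.0 to 77.4 CPM in the libraries labelled knockout, and none was at 0 in every library. The part of smooth muscle cells, pericytes and fibroblasts in the Abcc9 difference was not tested.

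Of the ribosome-linked members, Abce1 rose and the 3 members of subfamily F were not called (25% called, against 36.8% of all genes). Abce1, which splits ribosomes for recycling after termination, was at 81.4, 79.9 and 62.4 CPM in controls and 112, 112 and 86.3 CPM in the libraries labelled knockout. Control 3 and library 3 labelled knockout were each the lowest of their group (log2 fold 0.47, SE 0.146, edgeR adjusted p = 0.038). Its call ended without control 1, 2 or 3 (edgeR adjusted p = 0.0631, 0.0869 and 0.102) and without library 1 or 2 labelled knockout (0.117 and 0.128). Abcf1, which binds the initiation factor eIF2, had a log2 fold of -0.16, Abcf2 of 0.04 and Abcf3 of -0.10, with overlapping groups in all 3 (edgeR adjusted p = 0.175, 0.856 and 0.476).

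The remaining 3 untested members were Abcb11, the bile salt export pump, Abcc2, the canalicular conjugate exporter, and Abcb5. None of the 5 untested members exceeded 13 counts in a library.

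ABC genes outside these 47, and genes that act with them, were read from lists chosen with earlier results of these data known. Together 112 were tested, and 28 rose and 25 fell (47.3% called, against 36.8% of all genes). Among 6 ABC genes excluded by the rule or filed under other symbols, Tap1, the peptide transporter of antigen presentation, rose by a log2 fold of 0.97. The chloride channel gene Cftr fell by 0.76 and Abca3 by 1.23 on the log2 scale. The called share of these 6 was 50%, against 36.8% of all genes. Of 19 genes for peroxisomal import and fatty acid oxidation, 9 fell and 1 rose, with a median log2 fold of -0.24. The called share was 52.6%, against 36.8% of all genes. Cat, which encodes catalase, fell by 0.93 and the multifunctional enzyme gene Hsd17b4 by 0.68 on the log2 scale, while Acox2, a branched-chain oxidase, rose by 2.12. Of 26 genes of glutathione supply and conjugation, 7 rose and 4 fell (42.3% called, against 36.8%), with a median of -0.01. The 3 with the lowest p all fell, Ggt5 by 1.10, Gstt1 by 1.11 and Gstt3 by 0.64 on the log2 scale. The largest log2 fold of this list was a rise, 3.82 for Gsta1, named after its values were seen.

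Of 21 genes of mitochondrial iron-sulfur and heme synthesis, 5 rose and 1, Alad, fell by 0.66 on the log2 scale, with a median of 0.16. The called share was 28.6%, below the 36.8% of all genes. Cpox, a late heme enzyme gene, rose by a log2 fold of 0.92 and Gfer by 0.79. Of 14 genes of ribosome recycling and translation control, 7 rose and 2 fell (64.3% called, against 36.8%), with a median of 0.43. Ascc3 rose by a log2 fold of 0.68 and Eif2d by 0.61, and Eif2ak4, the uncharged-tRNA sensor GCN2, fell by 0.93 on the log2 scale. Pelo and Hbs1l, which act with Abce1 on stalled ribosomes and were named for that after their values were seen, rose by 0.51 and 0.35. The call of Pelo ended without control 2 (edgeR adjusted p = 0.05003) and that of Hbs1l without control 1, 2 or 3 (0.0991, 0.117 and 0.11) or library 1 or 2 labelled knockout (0.132 and 0.148). Of 5 cobalamin genes that act with Abcd4, only Mmadhc was called (20%, against 36.8% of all genes), with a log2 fold of 0.62. That call ended without control 2 or control 3 and without Grp78KO library 1 or 2 (edgeR adjusted p = 0.0658, 0.0642, 0.0696 and 0.0755).

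Regulators known to control ABC genes went both ways, with 5 of 19 tested higher, 7 lower and a median log2 fold of -0.29. The called share was 63.2%, against 36.8% of all genes. Nr1h3, which encodes the sterol sensor LXR alpha, fell by 1.04, Srebf2 by 0.95 and Srebf1 by 0.82 on the log2 scale. The 5 that rose were Trp53, Atf4, Nr1h4, Hnf4a and Nr1i2, named here after their values were seen. Trp53 and Atf4 rose by log2 folds of 1.66 and 1.57. The Hnf4a call (log2 fold 1.09) ended without control 2 or 3 (edgeR adjusted p = 0.147 and 0.092) and without library 1, 2 or 3 labelled knockout (0.0946, 0.11 and 0.0671). The Nr1h4 call, which rests on 4, 2 and 0 counts in controls and 24, 43 and 12 in the other group, ended without control 2 (0.0807) and without library 2 labelled knockout (0.0764). Nr1i2, the xenobiotic sensor PXR, rose by a log2 fold of 0.58 (edgeR adjusted p = 0.0266), a call that ended without control 1 or 3 (0.0829 and 0.0584) or library 1 or 2 labelled knockout (0.0852 and 0.0796). Nfe2l2, the oxidative stress factor NRF2 (also named after its values were seen), was at 224 to 340 CPM in controls and 226 to 238 CPM in the others and was not called (log2 fold -0.37, edgeR adjusted p = 0.111).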

How the data were processed

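The deposited table holds raw read counts per gene symbol, which the authors made from NEBNext Ultra RNA libraries sequenced as paired reads, per the labels' protocols. The submitters' processing notes name mm10 as build and edgeR 3.7 as tool. Which aligner, counter, annotation and strand setting were applied is not given in the sources used here. Counts of 2 were 1.63 to 1.76 times as common as counts of 1, and whether both mates of a pair were counted was not tested. Without strand, overlapping genes on opposite strands cannot be told apart.

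A robust quasi-likelihood F test (edgeR 4.0.16, R 4.3.3) was run on these counts after filterByExpr and TMM scaling, with group as the only term, and p-values were adjusted over 18849 genes. The SE is the log2 fold over the square root of F. The fit was also run on counts simulated from its own dispersion estimates, which checks the code and not the calls made here. All 47 members matched GENCODE M21, on the same build, which gave coordinates and exon lengths. Same-numbered libraries deviated together across genes at correlations of 0.174, 0.147 and 0.281. Unlike numbers 1 and 2 gave 0.116 and 0.0897, nearly as high, and pairs of 3 with 1 or 2 gave -0.227 to -0.181. Replicate number was also fitted as a block (the replicate block), but whether the numbers stand for a pairing was not tested. Alternatives were DESeq2 1.42.0, limma-voom (limma 3.58.1), other scalings and filters, and leaving out libraries.

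Of the tested members, 2 are counted but not reported here; the others are named. Values per library are given for those called at 1.5-fold or more, and 3 genes of each list by lowest p. The members and lists were chosen with earlier results of these data known.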

Additional observations from a re-analysis of the deposited data

How the results depend on the processing

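Of 21 called members, 8 (Abca12, Abca14, Abca17, Abca5, Abcb1b, Abcc3, Abcc4 and Abcc5) were called in each of the 15 alternatives that tested them. Abca12 was not tested with the filter of over 1 CPM in 3 libraries. How many of all called genes stayed called in every alternative was not counted, so these 8 are not set against it. Leaving out 1 library at a time gave 5 to 12 higher and 4 to 10 lower members, and 15 to 39 higher and 16 to 30 lower related genes, with fewer samples in each fit. The called share of all genes in these fits ran from 19.1% (without control 2) to 44.4% (without library 3 labelled knockout). Library-size scaling gave 4 lower members, and 50 higher and 13 lower related genes. Leaving out both libraries numbered 3 gave 43 higher and 42 lower related genes. The replicate block gave 13 higher and 10 lower members (54.8% of those tested, against 44.6% of all genes) and 37 higher and 33 lower related genes. It added Abca9 to the higher members and ended no member's call. Of all genes 40.1% were called with library-size scaling and 56.0% without both libraries numbered 3, against 36.8% in the main fit.

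Signs turned for these members. With library-size scaling the log2 fold was 0.21 for Abca7, 0.17 for Abcb10, 0.15 for Abcc10, 0.27 for Abcc8, 0.0917 for Abcf1, 0.16 for Abcf3 and 0.25 for Abcg3. With upper-quartile factors it was 0.0226 for Abca7, 0.0618 for Abcc8 and 0.0454 for Abcg3, and for Abcc8 it was 0.00117 with DESeq2 and 0.00111 with RLE factors. None of these was called in the main analysis. Leaving out 1 library at a time, or both numbered 3, gave -0.00922 to 0.0881 for Abcb8, -0.64 to 0.27 for Abcc8, -0.0681 to 0.16 for Abcf2 and -0.47 to 0.21 for Abcg3. The difference in the Abcc1 to Abcc4 log2 ratio ran from -0.15 to 0.0497 with 1 library left out. Apart from the library-size shift, the cause was not tested. Members such as Abca12, Abcc6, Abca6, Abcc8, Abcg3, Abcg4, Abcg5, Abcg8 and Abcb4 rest on few counts, which limits their precision.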

Other observations

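For 14 of the 21 called members library 3 labelled knockout was the one of its group nearest the controls (66.7%, against 67.8% of all called genes). In library 3 labelled knockout 9 of the 12 higher members had the lowest level of their group (75.0%, against 62.0% of all genes called higher). Of the 9 lower members 5 had the highest (55.6%, against 73.4% of all genes called lower). Without both libraries numbered 3, edgeR called 16 members higher and 10 lower (60.5% of tested members, against 56.0% of all genes in that fit), including the 21 called with all libraries, and those added included Abca8a, Abca9, Abcb11 and Abcb1a. Abcb11, the bile salt export pump gene, held 2, 0 and 4 counts in controls 1, 2 and 3 and 12, 10 and 6 counts in libraries 1, 2 and 3 labelled knockout.

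The summed TMM-scaled level of all members was 1392, 1368 and 1419 CPM in controls 1, 2 and 3. It was 1168, 1187 and 1216 CPM in libraries 1, 2 and 3 labelled knockout, and Abcd3 is its most abundant gene. This difference depends on the scaling. As shares of unscaled totals the members took 0.121%, 0.124% and 0.138% in controls. In the libraries labelled knockout these shares were 0.124%, 0.128% and 0.139%, so the groups overlapped. The log2 ratio of Abca8a to Abca8b was 2.24 ± 0.310 for controls and 2.00 ± 0.108 for the other group (SD, n = 3; exact permutation p = 0.40, adjusted p = 0.50). That of Abcg5 to Abcg8 was 1.19 ± 0.396 and 1.89 ± 0.791 (exact permutation p = 0.20, adjusted p = 0.333).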
